A study of Mus musculus with 57 samples.

Results

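Proenkephalin (Penk) is one of the most abundant transcripts of these T helper 2 (Th2) cells, and its level differed widely from cell to cell. The 14 cells with the highest and the 14 with the lowest Penk were compared, out of 54 ranked cells and 56 in the table. They were selected on Penk itself, so its values only describe the selection, and the 26 cells between them are given as a reference. A further 2 cells, T3_2 and T3_5, were left out of the ranking by the rule that formed the groups, T3_5 being the cell with the most genes detected, 8395. The study sequenced RNA from single CD4+ T cells of the spleen, taken from wild-type C57BL/6 mice aged 8 weeks. The cells had been turned into Th2 cells over 5 days of culture with interleukin-4 and antibody to interferon gamma, with interleukin-2 given after 2 days. They were then stimulated again with antibodies to CD3 and CD28 and captured on the Fluidigm C1, a microfluidic device that isolates single cells and amplifies their cDNA. All 28 cells share this genotype and treatment. The labels do not tie cells to animals or cultures, so they counted as 1 sample. Differences are described by their size, and no test between cells was made.

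Penk encodes a precursor protein that is cut by proteases into methionine- and leucine-enkephalin, short opioid peptides that act on opioid receptors of neurons and immune cells. In the brain it is known as a neuropeptide gene, and activated T helper cells, Th2 cells among them, are known to transcribe it. Its promoter is a textbook example of regulation by cyclic AMP and calcium, through factors of the CREB, AP-1, NFAT and NF-kB families.

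Levels are given in TPM, a measure of transcript abundance that corrects for gene length and sets a fixed total per cell. Penk ranged from 43414 to 105169 TPM in the Penk-high cells, with a median of 58015.5 TPM. In the Penk-low cells it ranged from 10 to 12343 TPM, with a median of 2408 TPM. It was detected, at 1 TPM or more, in all 54 cells, at a mean of 30761 TPM (SD over cells 25294). At the upper limit the last Penk-high cell (T5_6) held 43414 TPM and the next cell in rank (T1_2) 40161 TPM. At the lower limit the first Penk-low cell (T2_6) held 12343 TPM and the cell just above it (T5_10) 12648 TPM. Both limits thus cut through a continuous range. Below it the levels dropped steeply: 5 Penk-low cells held under 1000 TPM (median 14) and the other 9 held 1448 to 12343 TPM. Penk alone made up 4.34 to 10.5% of all TPM in the Penk-high cells and at most 1.23% in the Penk-low cells. Because this share compresses all other genes, values rescaled without Penk are given as well.

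**Figure D1:**
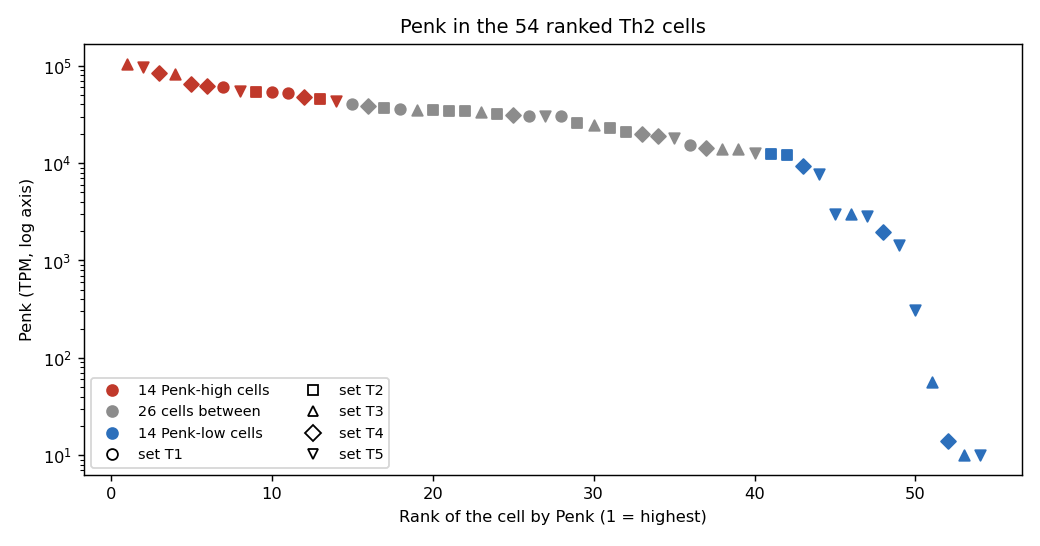
Penk in each of the 54 ranked cells, from the highest (rank 1) to the lowest (rank 54), in TPM on a log axis; colours give the 14 Penk-high cells, the 26 cells between and the 14 Penk-low cells, and marker shapes the set. The level declines without a break from 105169 to 12343 TPM and then drops to 10 TPM over the Penk-low cells.

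By their titles the cells belong to 5 sets, named T1 to T5, whose meaning the labels do not give. The Penk-high cells came from all sets: 3 from T1, 2 from T2, 2 from T3, 4 from T4 and 3 from T5. The Penk-low cells were spread less evenly, with 0 from T1, 2 from T2, 3 from T3, 3 from T4 and 6 from T5. The median of Penk over all ranked cells of a set was highest in T1 (38041.5 TPM) and T2 (33184.5), lower in T4 (25654.5) and T3 (19334) and lowest in T5 (10215.5). The Penk-high cells had a median of 4480 genes detected (3379 to 5194), the Penk-low cells 4709.5 (2905 to 5376) and the cells between 4804.5 (2678 to 6982). The ranges overlapped almost fully, and Spearman's rho between Penk and genes detected was -0.12 over the 54 cells. Sequencing depth is not known from TPM, so counting error cannot be given. No pair of the 56 cells held identical values, and doublets were not called.

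Both groups carried the identity that the labels give. The Th2 master regulator Gata3, the T cell receptor parts Cd3d and Cd3e, the adhesion receptor Cd2 and the Th2 gene Ecm1 were detected in 14 of 14 cells of each group. Il4 was detected in 14 Penk-high and 13 Penk-low cells, the chemokine receptor Ccr8 in 12 and 13, and Cd4 in 11 and 8. Markers of other cells were few. Of the B cell markers 1 of 13 was measured, Cd74, at 0 to 672 TPM in the Penk-high and 0 to 203 TPM in the Penk-low cells. The 1 myeloid marker of 15 measured, Cd68, was at 0 in all Penk-high cells and reached 481 TPM in the Penk-low ones. Of 13 mast cell and basophil markers, Cpa3 reached 160 TPM in the Penk-high cells and Hdc was at 0 in both groups. The erythroid gene Alas2, 1 of 10, reached 16 and 101 TPM. The 5 of 14 CD8 T and NK cell markers measured summed to 0 to 5595 TPM in the Penk-high and 0 to 299 TPM in the Penk-low cells, mostly from the granule gene Nkg7. In both groups Cd8b1 was at 0. What part these genes had in the differences below was not tested.

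Between the groups, 7641 of the 10564 other genes were compared, those detected in at least 10 of the 54 cells. For each gene the difference is the mean of log2(TPM + 1) in the Penk-high cells minus that in the Penk-low cells. A value of 1 stands for a doubling of the geometric mean of TPM + 1, not of the mean TPM. It understates the change of genes that are low in all cells. Where many cells are near 0, it also reflects how many cells hold the gene. It can then exceed the change in mean TPM, as for Il3, or go against it, as for Il4. Of the 7641 genes, 975 (12.8%) had a difference of 1 or more and 1175 (15.4%) one of -1 or less. The median over all genes was -0.06. After rescaling without Penk these numbers were 1042 (13.6%) and 1112 (14.6%), with a median of -0.01. The 975 higher genes were all among the 1042, and the 1112 were all among the 1175. Rescaling moved the log2 level of any gene in a Penk-high cell by at most 0.16. With T3_2 and T3_5 kept in the ranking both groups held the same cells, and 990 and 1194 of 7870 genes were past the limits. For 0 of the 7641 genes did the ranges of the groups lie apart, so each difference below is one of averages over cells that overlap. These shares are the background against which the counts in each gene group are to be read.

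Neurotensin (Nts), the precursor of a secreted neuropeptide of gut and brain, showed the largest difference of all genes compared. Its level in the Penk-high cells ran from 1 to 13179 TPM, with a median of 802.5 TPM, and it was detected in 14 of 14. In the Penk-low cells the level ran from 0 to 880 TPM, with a median of 1 TPM, and 10 of 14 had it. The cell T5_5, at 880 TPM, held 96.7% of all Nts in the Penk-low group. The cells between had a median of 12 TPM, with the gene detected in 19 of 26. Mean log2 levels of Nts were 9.11 (SD over cells 4.40, n = 14 cells) in the Penk-high and 1.90 (SD 2.53, n = 14 cells) in the Penk-low cells, a difference of 7.21. The difference was 6.85 to 7.83 when any 1 cell was left out, 6.43 with set as a covariate and 5.73 when the cells were ranked within sets. It exceeds the SD of either group, although single cells overlap.

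The stretch upstream of the start site of Nts is shown because this gene, a neuropeptide precursor like Penk, differed most, and AP-1 factors are among those known at the Penk promoter. It spans chr10:102490419-102490668 on the minus strand of GRCm38.p6, from RefSeq, and ends at the start site. The capitals mark a TGAGTCA, the AP-1 motif.

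Nts: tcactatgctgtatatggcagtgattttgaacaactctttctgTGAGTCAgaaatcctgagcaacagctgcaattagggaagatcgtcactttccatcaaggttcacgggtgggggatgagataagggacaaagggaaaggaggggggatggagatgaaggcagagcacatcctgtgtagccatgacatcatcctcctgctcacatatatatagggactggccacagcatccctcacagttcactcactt

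The motif begins at position -207 counted from the start site. Searched on both strands (TGAGTCA or TGACTCA), the AP-1 motif occurred in 1709 of 32851 promoter windows of 300 bases (5.20%). The cyclic AMP response element TGACGTCA, which reads the same on both strands, occurred in 588 (1.79%) and not in the window of Nts. Neither motif was in the windows of Klk8, Ccl1, Il1r2 and Il3. Only exact matches were searched. The stretch of Nts printed above also holds TGACATCA, which differs from the cyclic AMP response element by 1 base, and how often that variant occurs was not counted. A match is a description of letters and says nothing of binding.

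Klk8, Il1r2 and Serpinb6b were also among the 15 largest differences. Klk8, a secreted serine protease known from the brain and skin, was at 0 to 1544 TPM (median 303.5) in the Penk-high and 0 to 162 TPM (median 3.5) in the Penk-low cells. It was detected in 13 and 8 cells, and its difference was 4.57. Il1r2, the decoy receptor that captures interleukin-1, had medians of 1137 TPM (0 to 6440) and 23.5 TPM (0 to 1408) and a difference of 3.46. Serpinb6b, a protease inhibitor of the mostly intracellular clade of serpins, had medians of 67.5 and 0.5 TPM and a difference of 3.68, and 1.5 when cells were ranked within sets. In all of these, several Penk-high cells were as low as the Penk-low ones.

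**Figure D2:**
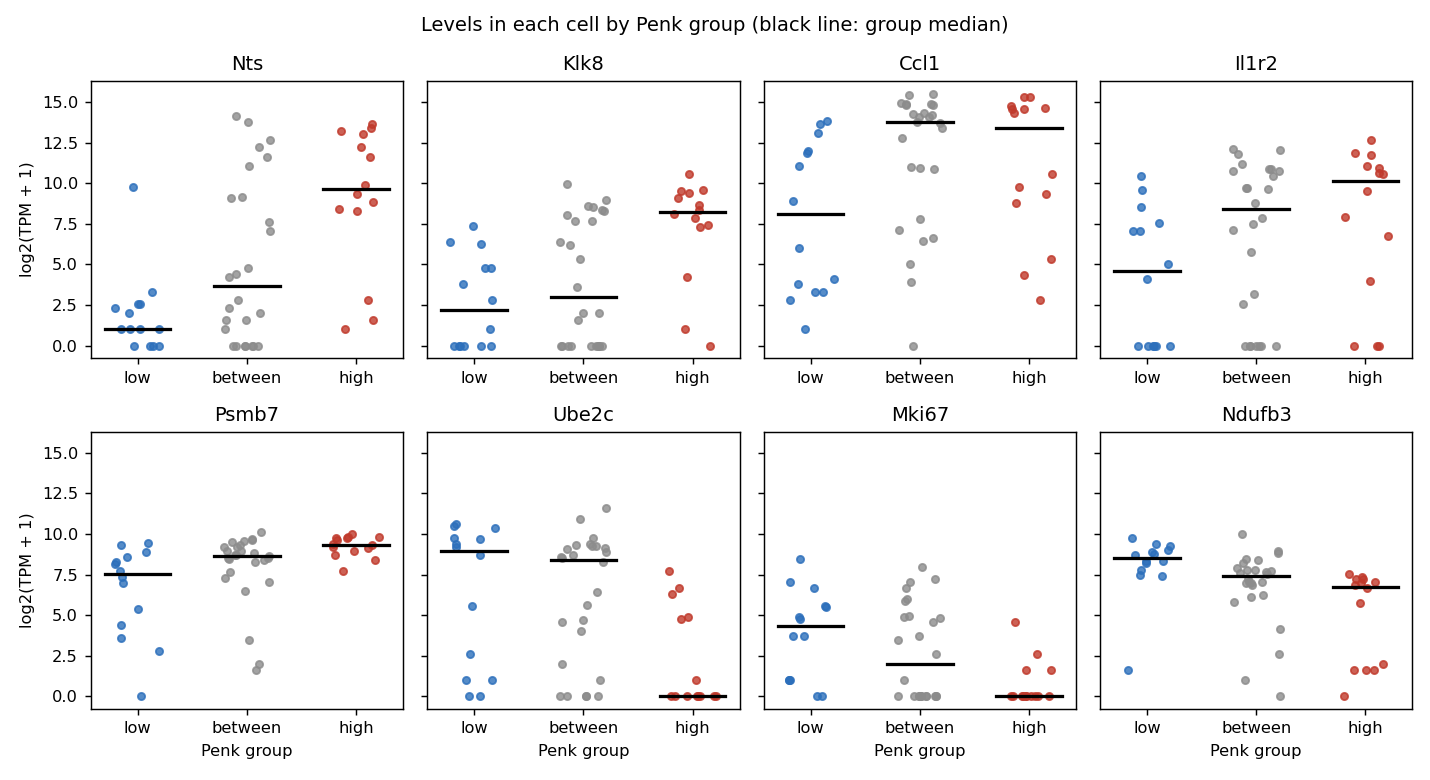
Each point is 1 cell, in log2(TPM + 1), for 8 genes in the Penk-low (14), between (26) and Penk-high (14) cells; black lines are group medians. Nts, Klk8, Ccl1, Il1r2 and Psmb7 are higher and Ube2c, Mki67 and Ndufb3 lower in the Penk-high cells, and the points of the groups overlap in every panel.

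In the list of other secreted factors and neuropeptides, 9 of 23 compared genes had a difference of 1 or more and 2 one of -1 or less, against 12.8% and 15.4% of all genes. The median of these 23 genes was 0.53, and 0.34 without the cell T4_12. The activin subunit Inhba (1.94) was among the 9, as was the granzyme gene Gzmb at 1.27 (0.73 without T3_7 and 0.31 with set as a covariate). Also among them were Serpinb6b, Serpinb9 (1.72) and Cyp11a1 (2.28), the steroidogenic enzyme known from Th2 cells, whose proteins act inside cells although the list holds them. For Cyp11a1 and Inhba the mean TPM went the other way, at 1101 against 1571 and 1221 against 2063 TPM, with highest levels of 5891 and 8840 TPM in Penk-low cells against 2379 and 3423 TPM in Penk-high cells. The 2 lower genes were the lectin Lgals3 (-2.57) and the metalloprotease Adam8 (-2.32). The most abundant member, the granule proteoglycan Srgn, had medians of 10306.5 and 11515.5 TPM and a difference of -0.21.

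All 7 chemokine genes compared lay above 0, against 3612 of all 7641 genes. At 1 or more were 4 of the 7, against 12.8% of all genes, and the median was 1.96. Ccl1, the ligand of the Th2 receptor Ccr8, ranged from 6 to 40713 TPM (median 10987) in the Penk-high and from 1 to 14654 TPM (median 276.5) in the Penk-low cells, a difference of 3.25. It was detected in 14 of 14 cells of both groups, and the cells between had a median of 13928 TPM, above that of the Penk-high cells. Cxcl3, a neutrophil attractant, had medians of 142 and 1 TPM and a difference of 2.96. Ccl4, a chemokine that attracts T cells and monocytes, had a difference of 2.27 although its medians were 9.5 and 5.5 TPM, and 1 Penk-high cell (T2_2) held 55.9% of the group's total.

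The related Ccl3 was found at up to 5639 TPM in 4 Penk-high cells and was listed at 0 in all 14 Penk-low cells. Its difference was 1.96, and 0.46 when cells were ranked within sets. Differences for Xcl1 (0.94), Ccl5 (0.65) and Cxcl2 (0.30) stayed below 1. The median of the chemokine list was that of Ccl3 and was 1.15 without the cell T4_6 and 1.23 when cells were ranked within sets. For 1 of the 7 chemokine genes the cells between had a mean log2 level between those of the groups. The same held for 2950 of all 7641 genes. Most genes, chemokine or not, thus did not follow the order of Penk over the full range. The CD8 T and NK cell list also had its Nkg7 higher, with a difference of 1.99 (1.27 without T1_7).

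The Th2 cytokine list showed no common direction. Of 11 genes compared, 2 had a difference of 1 or more and 2 one of -1 or less, and the median was -0.65, moving to 0.23 without the cell T4_5. Il3, a growth factor of mast cells and basophils, ranged from 1 to 36570 TPM (median 1453) in the Penk-high and from 1 to 27329 TPM (median 9) in the Penk-low cells, a difference of 3.43. Its mean TPM differed much less, 3991 against 2326, and the cells between had a mean of 11008 TPM. Il13, which acts on airway epithelium, was detected in 10 and 5 cells with a difference of 2.10.

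Il4, the defining cytokine, ranged from 8 to 5336 TPM (median 450) in the Penk-high and from 0 to 26918 TPM (median 263) in the Penk-low cells. Its difference was 0.60, and -0.01 without the cell T3_3, while its mean TPM was higher in the Penk-low cells, 4835 against 1165. The regulatory cytokine Il10 had medians of 483 and 817 TPM and a difference of -1.45. It was -0.88 without T4_2, -0.28 when cells were ranked within sets and -0.39 with the G2/M covariate described further on. The eosinophil factor Il5 was detected in 4 cells of each group, with a difference of -1.07 that became -0.43 without T2_5 and -0.27 with set as a covariate. The other members were Csf2 (0.45), Il31 (0.41), Il9 (-0.65), Il24 (-0.71), Il6 (-0.84) and Areg (-0.91).

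Of 27 Th2 regulators and receptors, 6 had a difference of 1 or more and 4 one of -1 or less, with a median of 0.24 (-0.09 without T4_9). Ecm1, which promotes the exit of Th2 cells from lymph nodes, had medians of 3156.5 TPM (186 to 6287) and 1200 TPM (3 to 4951) and a difference of 2.38. Stat6, which carries the interleukin-4 signal, had medians of 121.5 and 11.5 TPM and a difference of 2.37 (0.75 by the ratio of mean TPM). Lower in the Penk-high cells were the nuclear receptor Pparg, with medians of 0 and 33.5 TPM and a difference of -2.67, and Ccr8, with medians of 209 and 391 TPM and a difference of -1.92. For Ccr8 the difference was -0.81 with set as a covariate and -0.57 by the ratio of mean TPM. Gata3 itself had medians of 849 and 1347.5 TPM.

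Few genes of the enkephalin pathway beyond Penk could be compared. Of 22 genes of peptide precursor processing and secretory granules, 9 were in the table and 4 were compared, none of them past 1 or -1. The proprotein convertase Furin ranged from 4 to 103 TPM (median 20.5) and from 0 to 163 TPM (median 28.5), a difference of 0.43. The carboxypeptidase Cpd was at -0.89, the sulfotransferase Tpst2 at 0.06 and the convertase Pcsk7 at -0.25. Among 11 compared genes of opioid signalling and peptide breakdown, with a median of 0.23 (-0.09 without T3_3), 1 was at 1 or more and 1 at -1 or less. The peptidase Ece1 was at 1.35, with medians of 212 and 108 TPM (0.94 without T3_7 and 0.36 by the ratio of mean TPM). The opioid precursor Pomc was at -1.06, detected in 1 and 5 cells (-0.72 without T5_7). The inhibitory G protein genes through which opioid receptors signal were at 0.23 (Gnai3), -0.04 (Gnai2) and, with 2 Penk-high and 0 Penk-low cells, 0.64 (Gnai1).

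The list of Penk promoter factors holds mostly members of the families known at that promoter, with coactivators. Whether each member acts there was not checked. Of its 30 compared genes, 9 were at -1 or less and 2 at 1 or more, against 15.4% and 12.8% of all genes, with a median of -0.77. Among the 9 is Nf1, which entered the list by its name but encodes neurofibromin, a Ras regulator. Without it the count was 8 of 29 and the median -0.74. The NF-kB subunit Rela ranged from 0 to 1443 TPM (median 24.5) in the Penk-high and from 1 to 1800 TPM (median 362.5) in the Penk-low cells, a difference of -2.81. Relb was at -1.07 (-0.68 without T5_4, -0.57 with set as a covariate and -0.96 when cells were ranked within sets). Nfkb1 (-0.998, with medians of 134.5 and 291.5 TPM) lay just short of the limit, and Nfkb2 (-0.86) and Rel (0.33) were not past it. Sp1 was at -1.11 (-0.85 without T4_2 and -0.58 with set as a covariate) and Yy1, just short of the limit, at -0.99.

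Of the AP-1 genes, Fosl1 was at -1.85 and Fosl2 at -1.19 (-0.80 without T5_2), while Fos (0.15), Jun (0.15), Jund (0.92), Junb (-0.74) and Batf (0.31) lay within 1. Fosl1 was detected in 1 Penk-high and 6 Penk-low cells. The calcium-responsive factor Nfatc1 was at -1.83 (-0.94 when cells were ranked within sets), and its relatives Nfatc2 and Nfatc3 at 0.72 and -0.55. In the CREB and ATF family Atf3 had medians of 98 and 3 TPM and a difference of 2.13. Its mean TPM was nearly equal, 181 against 178, and ranking the cells within sets gave 0.98. Crem was at 1.20 (0.75 without T3_8) and Creb1 at -0.79. Atf1 was at -1.15 (-0.70 without T3_3 and -0.64 when cells were ranked within sets). Atf2, also at -1.15, was at -0.75 without T5_2, -0.49 when cells were ranked within sets and -0.20 with the G2/M covariate. With that covariate, the number of G2/M genes detected, the median of the 29 genes was -0.36.

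The wider list of cyclic AMP signalling held 4 of 17 genes at 1 or more and 0 at -1 or less, with a median of 0.17. Without any 1 cell that median ran from -0.08 (T5_4) to 0.45 (T1_7) and the count at 1 or more from 2 to 5. Akap8, an anchor of protein kinase A in the nucleus, had medians of 43.5 and 1 TPM and a difference of 3.19. The phosphodiesterase Pde4b was at 1.86, with medians of 6 and 0 TPM. Immediate early genes, which respond within minutes to receptor signals, had 2 of 34 at 1 or more and 9 at -1 or less, with a median of -0.23 (-0.49 without T3_3 and -0.06 without T3_1). The early factor Egr1 was detected in 5 Penk-high and 10 Penk-low cells, at medians of 0 and 32 TPM and a difference of -2.58 (-0.46 by the ratio of mean TPM). The antiproliferative gene Btg2 was at -2.78, and Rgs1, the most abundant, at 0.04.

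In the activation list 2 of 33 genes were at 1 or more and 7 at -1 or less, with a median of -0.18 (-0.23 without T5_3 and 0.11 without T3_8). Tnfsf4, the OX40 ligand, was at 2.99 (medians 104.5 and 0 TPM), and its receptor Tnfrsf4 was at -0.25, with medians of 8706.5 and 11826 TPM. The helper ligand Cd40lg had medians of 76 and 204.5 TPM and a difference of -2.23, which was -0.08 when cells were ranked within sets. The costimulatory receptor Cd28 was at -1.45.

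**Figure D3:**
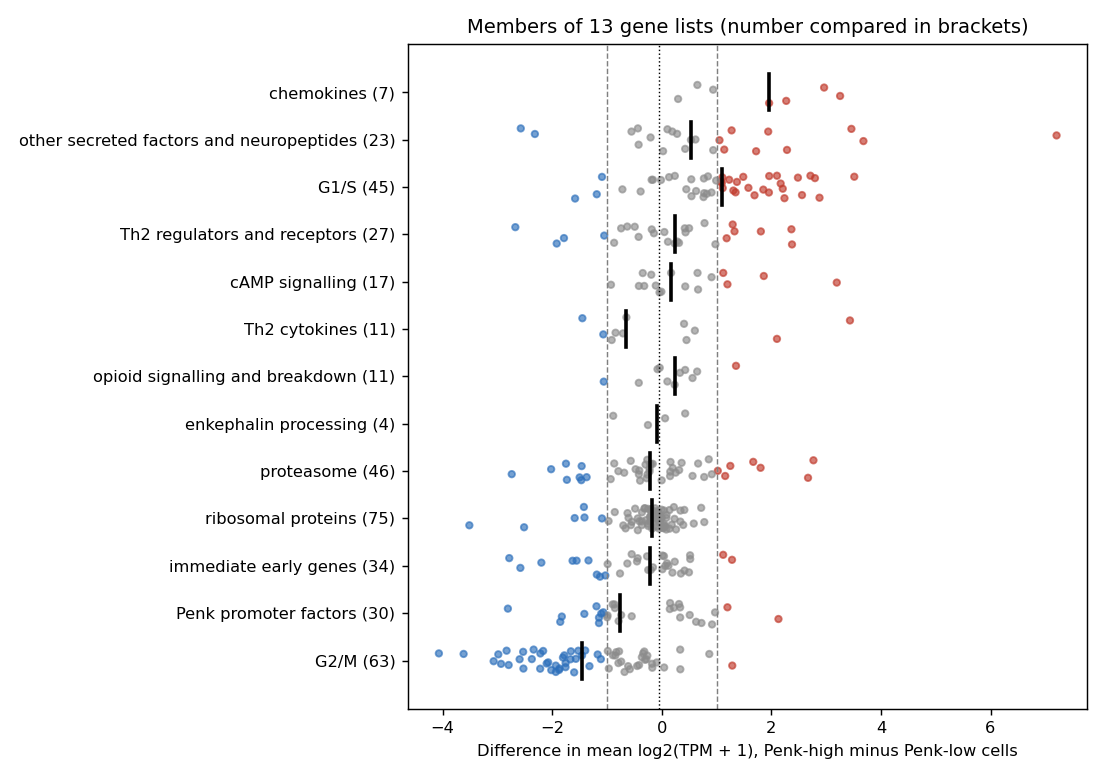
Difference in mean log2(TPM + 1), Penk-high minus Penk-low cells, for each compared member of 13 gene lists; thick black bars are list medians, dashed lines mark -1 and 1, and the dotted line is the median of all 7641 genes (-0.06). The chemokine and G1/S medians lie at 1.96 and 1.10, and the G2/M median at -1.46.

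Among the lists with at least 20 compared genes, that of mitosis had the median farthest from 0. Of 63 compared genes of the G2/M phase, in which cells prepare for and carry out mitosis, 36 had a difference of -1 or less and 1 (Cdca5, needed for sister chromatid cohesion) one of 1 or more. Cdca5 was at 1.29, and at 0.68 without T2_12. The median was -1.46, against -0.06 over all genes, and ran from -1.63 to -1.14 when any 1 cell was left out. It was -1.45 after rescaling without Penk, -1.29 with set as a covariate and -0.99 when cells were ranked within sets. Within single sets the median was -0.20 (T2), -1.40 (T3), -2.23 (T4) and -1.02 (T5), with 2 to 6 cells a group, and T1 had no Penk-low cell.

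Ube2c, the ubiquitin-conjugating enzyme of the anaphase-promoting complex, had the most negative difference of all genes, at -4.07. Its level ran from 0 to 212 TPM (median 0) in the Penk-high and from 0 to 1544 TPM (median 501.5) in the Penk-low cells, and it was detected in 6 and 12. The proliferation marker Mki67 ran from 0 to 23 TPM (median 0) and from 0 to 358 TPM (median 19), a difference of -3.07. Cdca8, of the chromosomal passenger complex, was at -3.62, with medians of 0 and 77 TPM. The kinetochore gene Nuf2 (-3.11), the spindle genes Prc1 (-2.98), Cenpe (-2.93) and Kif11 (-2.83), the kinase Aurka (-2.60) and the cyclin genes Ccnb2 (-2.53) and Ccnb1 (-2.37) followed. Top2a, which untangles chromosomes, was at -2.22 with medians of 11.5 and 113.5 TPM.

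The number of the 66 G2/M genes detected per cell had a median of 20 (11 to 49) in the Penk-high cells, 35.5 (8 to 63) in the cells between and 43 (10 to 55) in the Penk-low cells. Above the median of the 54 cells (30.5 genes) were 3 of 14 Penk-high, 15 of 26 between and 9 of 14 Penk-low cells. Spearman's rho of this number with Penk was -0.27 over the 54 cells. It was -0.23 after centring the ranks in each set and -0.25 as a partial correlation given genes detected. The 5 cells with under 1000 TPM of Penk had a median of 23 genes (10 to 42), and the other 9 Penk-low cells 47 (10 to 55). Of the 14 cells with the most G2/M genes, 1 was Penk-high, 5 were Penk-low and 8 lay between. Of the 14 cells with the fewest, 6 were Penk-high, 3 were Penk-low and 5 lay between. The Penk-high cells thus had the lowest median but not the lowest single counts, and along the Penk-low cells the number did not keep rising as Penk declined. Spearman's rho of the summed G2/M TPM, rescaled without Penk, with Penk was -0.21, and -0.14 after centring the ranks in each set. The split at 1000 TPM was made after the values had been seen.

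**Figure D4:**
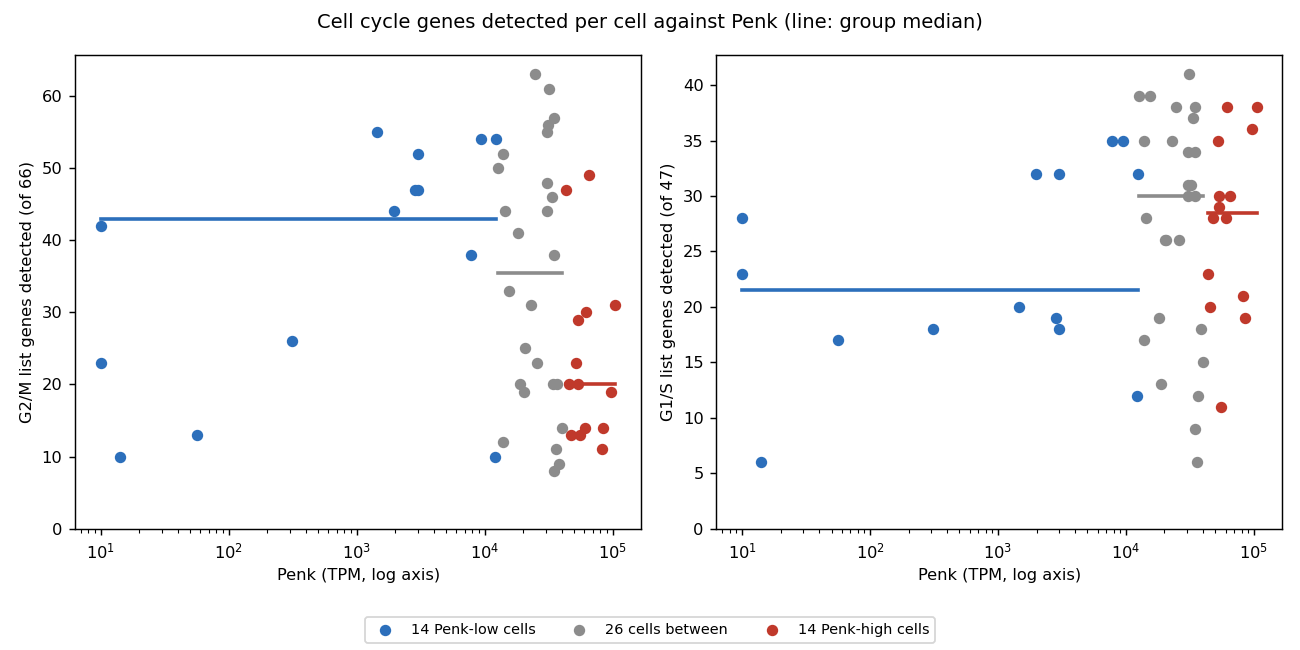
Number of G2/M list genes (left) and G1/S list genes (right) detected in each of the 54 cells against Penk in TPM (log axis); horizontal lines are group medians. For G2/M the medians are 43 in the Penk-low, 35.5 in the between and 20 in the Penk-high cells, and for G1/S they are 21.5, 30 and 28.5.

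Genes of the G1/S transition and DNA synthesis went the other way. Of 45 compared, 24 had a difference of 1 or more and 3 one of -1 or less, with a median of 1.10 (0.90 to 1.38 when any 1 cell was left out). The primase subunit Prim1 had medians of 85 and 0 TPM and a difference of 3.51, which was 1.02 when cells were ranked within sets. The helicase subunits Mcm7 and Mcm3 were at 2.88 and 2.79, and the sliding clamp Pcna at 2.17, with medians of 333 and 126.5 TPM. Tk1 (-1.09, and -0.58 without T3_7), Pole (-1.19, and -0.87 without T5_9) and Rfc4 (-1.58) were the 3 lower genes. Within T2, T3, T4 and T5 the medians were 0.88, 1.10, 0.86 and 0.95, whereas ranking the cells within sets gave 0.58 and 14 genes at 1 or more. Summed over the list, G1/S genes had medians of 5833.5 TPM in the Penk-high, 5079 in the between and 3908 in the Penk-low cells. The number of G1/S genes detected had a median of 28.5 in the Penk-high cells. In the Penk-low group it was 18 in the 5 cells under 1000 TPM of Penk and 32 in the other 9, so not all Penk-low cells had few. Spearman's rho with Penk over the 54 cells was 0.11 for this number and 0.31 for the summed TPM rescaled without Penk.

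Because division genes differed, all genes were also compared with the number of G2/M genes detected as a covariate, a choice made after seeing the data. Then 1406 genes (18.4%) were at 1 or more and 1047 (13.7%) at -1 or less, of which 867 and 793 were also past the limit without the covariate. The G2/M median became -0.32, with 12 genes at -1 or less, as follows from the covariate's construction. The G1/S median was 1.66 and that of the chemokines 2.08. For Nts the difference was 8.10, for Ccl1 3.95 and for Il4 2.26. The mitotic genes Ube2c and Mki67 were at -1.40 and -1.66, and Ndufb3 at -3.06. Prc1 (-0.84), Aurka (-0.79), Ccnb2 (-0.70), Ccnb1 (-0.34) and Top2a (-0.14) were no longer past the limit.

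Over all 54 cells, the genes whose level was most alike to Penk, by Spearman's rho among genes detected in at least 20 cells, were the proteasome subunits Psmb7 (0.50) and Psmd2 (0.49). These values describe the same cells from which the groups were taken. Psmb7 ranged from 210 to 1022 TPM (median 645) in the Penk-high and from 0 to 691 TPM (median 183.5) in the Penk-low cells, a difference of 2.77. Mean log2 levels were 9.26 (SD 0.64, n = 14 cells) and 6.49 (SD 2.84, n = 14 cells), so Psmb7 was much more even among Penk-high cells. Next were Nts, Klk8, the ubiquitin ligase Huwe1 and Gm16119 (0.48 each), Ubl4 (0.46), Znf512b and the elongation factor Ell2 (0.44 each) and Galc (0.42), a lysosomal galactosidase. Galc was at up to 160 TPM in 8 Penk-high cells and listed at 0 in all 14 Penk-low cells.

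The proteasome as a whole had no common direction: 7 of 46 genes were at 1 or more and 8 at -1 or less, with a median of -0.22 (-0.01 without T3_8). Psmd6 (-2.74) and Psmd1 (-2.02), subunits of the same regulatory particle as Psmd2, lay on the other side. Psmd6 had medians of 62 and 405 TPM.

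The lowest rho belonged to Ndufb3, a subunit of respiratory complex I, at -0.57. It ranged from 0 to 183 TPM (median 107.5) in the Penk-high and from 2 to 846 TPM (median 369.5) in the Penk-low cells, a difference of -3.11, and the cells between had a median of 167 TPM. Of 77 genes of oxidative phosphorylation, 4 were at 1 or more and 7 at -1 or less, with a median of -0.12 (-0.24 without T5_4 and 0.08 without T2_12), so most of the list lay far from the value of Ndufb3. Arl6ip1, a shaping protein of the endoplasmic reticulum, followed with a rho of -0.48 and medians of 67 and 645.5 TPM. Further down were Snrnp25 of the minor spliceosome (-0.47), the mitochondrial carrier Slc25a12 and the Mediator subunit Med1 (-0.46 each), the histone gene H3f3b, Tes and Cox18 (-0.43 each), Snhg1 (-0.42) and Wdr26 (-0.41). Slc25a12 had no more than 3 TPM in any Penk-high cell and up to 633 TPM in the Penk-low cells.

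Other genes among the 15 largest differences were Znf512b (4.43), the cell cycle repressor subunit Lin37 (3.96), the dynein light chain Dynlt3 (3.77), the cargo receptor Cnih (3.51), the phosphatase subunit Ppp2r2d (3.29), Pdzk1ip1 (3.28) and the proton pump subunit Atp6v1c1 (3.23). Lin37 had 0 to 669 TPM (median 46) in the Penk-high and 0 to 8 TPM (median 0) in the Penk-low cells. It does not stand for all of them. Cnih had 2 to 575 TPM (median 113.5) and 0 to 515 TPM (median 4), and Pdzk1ip1 0 to 1976 TPM (median 400.5) and 0 to 1288 TPM (median 0). Among the 15 most negative were Snrnp25 (-3.65), Slc25a12 (-3.55), Rpl10 (-3.51), the repair and transcription factor subunit Gtf2h3 (-3.25), Nsmce1 (-3.17), the splicing factor Lsm4 (-3.16), the kinase Stk16 (-3.15), 1110001J03Rik and Mrpl37 (-3.02 each) and the glucosidase subunit Ganab (-3.00). All 30 stayed past 1 or -1 when any 1 cell was left out, and again when cells were ranked within sets. The 30 were picked for their size, and these alternatives reuse most of the same cells. The ranking within sets shared 12 of its 13 high and 10 of its 13 low cells with the main groups. That the 30 stayed past the limit was thus largely fixed in advance and is no separate support. Rpl10 has near-identical copies elsewhere in the genome, so its level is uncertain. Over 75 ribosomal protein genes 0 were at 1 or more and 6 at -1 or less, with a median of -0.17.

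The remaining lists are to be read beside the 12.8% at 1 or more and 15.4% at -1 or less of all genes. Heat shock and interferon response genes each had 20.7% and 6.9%, and sterol synthesis genes 22.2% and 5.56%, all from small counts. Heat shock genes had 6 of 29 at 1 or more, among them the chaperone genes Dnaja3 (2.11) and Hsph1 (1.99), and 2 at -1 or less, with a median of -0.02. Interferon response genes also had 6 of 29 and 2, led by Stat2 (2.18), with a median of 0.02. Without any 1 cell the interferon counts ran from 3 to 7 and from 0 to 5, and the median from -0.17 (T4_7) to 0.48 (T5_4). In sterol synthesis 4 of 18 were at 1 or more and 1 at -1 or less, with a median of 0.30, and 2 to 5 were at 1 or more without any 1 cell. The secretory pathway and unfolded protein response had 3 of 48 and 5, and a median of -0.01, and the count at 1 or more ran from 2 to 8 without any 1 cell. In this list Xbp1 was at 1.70 (0.93 when cells were ranked within sets) and the chaperone Hspa5 at -0.59.

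Amino acid stress genes had 4 of 30 and 5, p53 and apoptosis genes 3 of 29 and 3, glycolysis 2 of 19 and 4, MHC class I 1 of 13 and 2, and adhesion and cytoskeleton 6 of 39 and 3 (3 to 7 and 2 to 5 without any 1 cell). T cell identity genes had 3 of 18 on each side, naive T cell genes 1 of 7 on each side and housekeeping genes 1 of 19 and 2. For the other helper fates, Th1 had 1 of 5 at 1 or more (Il18rap, 1.06, and 0.49 without T4_9), Th17 1 of 2, Treg 1 of 4 at -1 or less and Tfh 0 of 3. In the Th17 list the interleukin-1 receptor Il1r1 was found in 3 Penk-high cells and listed at 0 in all 14 Penk-low cells. Its difference was 1.34, and 0.83 without T2_2. Actb was at -0.65, with medians of 10384.5 and 14671.5 TPM, and B2m at -0.15.

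Within the Penk-low group, the 5 cells with under 1000 TPM of Penk differed from the other 9 in more than division genes, a comparison of levels made after seeing them. Ccl1 had a median of 16 TPM in the 5 and 3699 TPM in the 9, and Il3 had 9 and 68 TPM. Cyp11a1 had medians of 3 and 1223 TPM, Ecm1 of 239 and 1330 TPM and Il4 of 4 and 441 TPM. For these 3 genes the ranges overlapped almost fully, so not all of the 5 cells were low. Cyp11a1 ran from 0 to 4602 TPM in the 5 and from 0 to 5891 TPM in the 9. Ecm1 ran from 3 to 4951 and from 13 to 4554 TPM, and Il4 from 0 to 21171 and from 5 to 26918 TPM. The identity genes Gata3 (1395 and 1300 TPM) and Cd3d (1292 and 1418 TPM) were at like medians, as was Csf2 (373 and 313 TPM). The 5 cells had a median of 4101 genes detected and the 9 a median of 4853, and the part of this in the differences was not tested.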

How the data were processed

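The authors deposited 1 table of 10565 genes in 56 single cells, whose values are a score: TPM rounded by the authors to whole numbers, as the values and column sums of 999202 to 999914 show. Per the submitters' processing notes the build was mm9 and the tools FastQC, Bowtie 0.12.2 and Cufflinks; their order and the annotation are not given in the sources used here. A value of 0 can be a lost transcript, and depth is unknown. The pooled sample of 10000 cells is not analysed here.

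Cells were ranked by Penk and the 14 highest and 14 lowest compared by mean log2(TPM + 1), a pseudocount of 1, with a gene detected at 1 TPM or more. A gene was counted at a difference of 1 or more, or -1 or less. Covariates (genes detected, set, G2/M genes detected) entered linear fits over the 28 cells. With 1 sample there is no test, standard error or p-value. The members and the 36 gene lists were chosen with earlier results of these data known. Named were Penk, the 15 largest and 15 smallest differences that held after rescaling without Penk and kept their sign after adjustment for genes detected and for set, all compared members of the enkephalin processing, opioid, promoter factor, Th2 cytokine and chemokine lists, from each other list the 2 largest, 2 smallest and the most abundant member, and the 10 highest and 10 lowest rho. Further list members named as examples, and the values within the Penk-low group, were chosen after their values were seen. The rule also named 1 gene that is not reported here. Symbols were printed as in the table, older names included (9357 current, 1086 older and 122 not matched in the RefSeq annotation of GRCm38.p6); promoter windows of 300 bases came from that build. Python 3.11.15, numpy 2.4.6, pandas 2.3.3 and matplotlib 3.10.9 were used, and the calculations were tested on simulated data.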

Additional observations from a re-analysis of the deposited data

How the results depend on the processing

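Single cells of 1 sample cannot show how far these differences would hold in other animals or cultures, set and Penk were unevenly matched, and TPM gives no depth. The number of genes at 1 or more, 975, became 309 with a pseudocount of 10, 1539 by the ratio of mean TPM and 1524 without set T5, and leaving out any 1 cell gave 878 to 1073. The number at -1 or less, 1175, became 359 with a pseudocount of 10 and was 1111 to 1328 without any 1 cell. The cause was not tested, beyond that a larger pseudocount shrinks differences of low genes. The other alternatives kept both numbers within 1.5 times. Of the 30 genes with the largest differences, 29 stayed past 1 or -1 by the ratio of mean TPM (Il3 was at 0.78) and all 30 under the other alternatives tried. As the 30 were picked for their size in these same cells, this was largely fixed in advance. Some named genes past the limit changed sign. Without set T5 this held for Atf2 (0.63), Havcr2 (-0.21), Pde4b (-0.35), Cd5 (-0.17), Isg20 (0.089) and AW112010 (0.066), and without T4 for Crem (-0.45) and Il18rap (-0.093). Isg20 was at 0.10 without T3. Ranked within sets, Il5 was at 0.085 and Isg20 at 0.11. By the ratio of mean TPM, Rgs2 was at -0.30, Tars at 0.34 and Hspa4 at 0.30. With genes detected and set as covariates on rescaled values, Erap1 was at 0.071. The covariate of G2/M genes, added after seeing the data, put Rfc4 at 0.31 and Erap1 at 0.014. No replicate numbers pair Penk-high with Penk-low cells; set, which both groups share for T2 to T5, entered as a covariate or by ranking within sets.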
